A study of Mus musculus with 18 samples.

Results

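The 6 livers of tumour-bearing wild-type (WT) mice were placed in order by how much of each RNA library came from the serum amyloid A genes Saa1 and Saa2, and the other genes were followed along that order. They are 6 of 18 livers sequenced by 3′ mRNA sequencing (QuantSeq 3′ FWD), the others being 6 from control WT mice and 6 from mice of genotype Alb-Cre+/+;Stat3f/f that also bore the tumour. In the latter, Cre driven by the albumin promoter removes Stat3 mainly in hepatocytes, so other liver cells keep the gene. The tumour is named in the labels as PDA.69, a T cell-low pancreatic ductal adenocarcinoma line derived from KPC mice, and the same line is also listed for the control livers. The labels give no tumour site, tumour size, time after implantation, age or sex, and the tumour is 1 line. The livers were chosen by their label alone, and their order was chosen by measured values, the summed share of Saa1 and Saa2 counts, so the Saa values below are a description with no test. The liver label matched the data: albumin (Alb), the main secreted protein of hepatocytes, stood at 28995 to 67660 CPM (read counts relative to library size after TMM scaling) in the 6 livers, and all 18 hepatocyte markers were detected. Stat3, the targeted gene, was at 99.3 to 132 CPM in Stat3-deleted livers, 163 to 264 CPM in tumour-bearing WT livers and 93.4 to 147 CPM in control livers; reads at the end of the gene need not cover the removed part, and other cells keep it. The labels do not say which mice shared a cage, litter or day, so p-values measure the spread between livers. For the slopes below that spread is pooled over all 18. Ddx3y, a gene of the Y chromosome, was read at 116 to 208 CPM in all 18 livers.

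In the acute-phase response, hepatocytes change what they secrete into plasma when cytokines such as IL-6 reach the liver. IL-6 acts through gp130 and STAT3, which together with C/EBP and NF-kB factors raises transcription of serum amyloid A, haptoglobin, fibrinogen and other plasma proteins. Serum amyloid A is an apolipoprotein carried on high-density lipoprotein and is among the most strongly induced of these proteins in mice. Many hepatocyte genes for drug, steroid and lipid metabolism are known to be lower during this response.

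From the lowest to the highest share the livers stood in the order 2, 1, 5, 3, 6 and 4, by the number in their label. Saa1 and Saa2 together took 0.869%, 1.21%, 1.84%, 2.53%, 2.80% and 7.78% of the counts in these livers. The highest share was 8.95-fold the lowest, and liver 4 alone lay 2.77-fold above the next liver, a gap of 0.720 of the range on the linear scale and of 0.465 on the log2 scale used for the slopes. Control livers lay between 0.0168% and 0.0797% and Stat3-deleted livers between 0.00117% and 0.0328%, so the lowest tumour-bearing WT liver was 10.9-fold above the highest control liver. Counting error was small beside these differences: the 95% Wilson interval of liver 2, the lowest, ran from 0.862% to 0.875%.

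**Figure D1:**
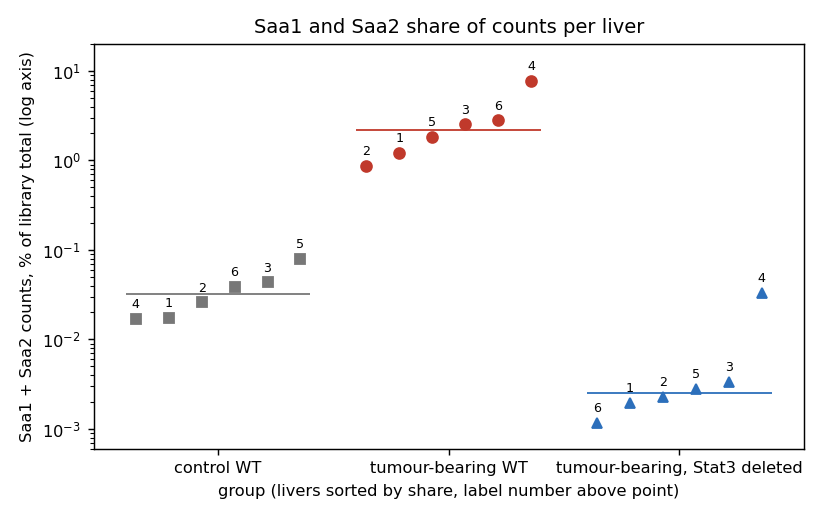
Share of each library's counts that came from Saa1 and Saa2 (%, log axis), 1 point per liver, sorted within each group, with the label number above each point and a line at the group median. Tumour-bearing WT livers ran from 0.869% to 7.78%, with liver 4 apart from the other 5 on the linear scale.

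Saa1 (mouse chromosome 7, 46740497 to 46743181, GRCm38) was at 5486, 7253, 11150, 15557, 21646 and 48486 CPM along the order. Saa2, its neighbour at 46751833 to 46754313, was at 2519, 4253, 8248, 11360, 15759 and 39017 CPM. Each gene alone gave the same order. The ratio of Saa1 to Saa2 counts was 2.18 in liver 2 and 1.24 in liver 4, so Saa2 spanned the wider range. Saa1 and Saa2 are near-identical copies, and the sources used here do not say how reads shared by both were assigned, so the split between them is uncertain. Saa3, the third inducible gene of the family, is made largely outside hepatocytes. It was at 69.5, 60.7, 51.0, 79.4, 224 and 134 CPM and did not pass the test (slope 0.47, SE 0.22, adjusted p = 0.364).

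The promoters of Saa1 and Saa2 are shown because the order rests on these genes. In the 250 bases before the start site that the RefSeq promoter table (GRCm38.p6) gives for each gene, 249 positions could be aligned and 238 of them (95.6%) were identical. The stretches below, on the strand of each gene, hold 2 of the 11 differing positions, in capitals. The Saa1 stretch is chr7:46743051-46743080 (minus strand), inside the full annotated extent of Saa1, which reaches farther upstream than that start site, and the Saa2 stretch is chr7:46751732-46751761 (plus strand).
Saa1: gacttgtctggagtTttCccaagggtggtg
Saa2: gacttgtctggagtAttAccaagggtggtg

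Livers differed in other measures along the order. With Saa1 and Saa2 set aside, the 20 most abundant genes took 24.7% of the remaining counts in liver 2, 34.1% in liver 6 and 30.9% in liver 4, against 24.4% to 26.1% in control livers (rho 0.94, exact permutation p = 0.0167, adjusted p = 0.0583 over 7 measures; Pearson r 0.73, exact permutation p = 0.0875, and 0.91 without the 2 livers farthest from the median). TMM scaling factors, which correct for such shifts, went from 1.09 to 0.75 between livers 2 and 6 (rho −0.94, exact permutation p = 0.0167, adjusted p = 0.0583; r −0.68, exact permutation p = 0.139, and −0.85 without the 2 farthest). Total counts ran from 6159553 to 8838849 in the 6 livers (r 0.72, exact permutation p = 0.125; rho 0.71, exact permutation p = 0.136; r 0.96 without the 2 farthest). The description labels hold numbers in a lower and a higher run, 3 livers in each, and livers 4, 5 and 6 belong to the higher. Liver 6 stood apart most often: of 8397 genes that averaged 5 CPM or more, it was the highest or lowest liver by a gap past Dixon's 95% critical value in 277 (3.30%), against 15 to 118 in each of the other 5 livers. Fkbp5, a glucocorticoid-induced immunophilin, was at 221 CPM against 13.03 to 29.6 in the other 5. The part of these measures in the results below was not tested.

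Each gene is described by a slope and a rank correlation. The slope is the log2 change of the gene per doubling of the Saa share, from edgeR's quasi-likelihood test fitted to all 18 livers with a slope for each group and adjusted over 11216 genes by the Benjamini-Hochberg method. The rank correlation (rho) uses the 6 tumour-bearing WT livers alone. A positive slope passed an adjusted p of 0.05 for 21 genes (0.187% of those tested) and a negative slope for 36 (0.321%), while 1528 genes had an unadjusted p under 0.05. No gene passed adjustment by rho or r, whose smallest adjusted p were 0.51 and 0.603. By rho, 6 livers cannot give an exact permutation p below 0.00278, so a gene could pass only if many shared that value. The lack of passing genes by rho therefore says little of single genes. An exact permutation p under 0.05 was reached by 549 genes by rho and 646 by r. Of 8397 genes, 258 (3.07%) reached a rho of at least 0.886 and 291 (3.47%) of at most −0.886, the values past which the exact p is under 0.05; 16 genes had a rho of 1 and 20 of −1. Counting both directions, the exact permutation p is 0.0333 at that limit and 0.00278 at a rho of 1 or −1. These are the shares of genes expected there if none followed the order. Slope and rho read the same livers and are not independent. Of the 21 rising genes 20 were abundant enough to rank, 18 of which reached a rho of at least 0.886. Of the 36 falling genes 31 could be ranked and 20 reached a rho of at most −0.886.

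These counts rest on few livers. The fit borrows its estimate of spread from the other groups: fitted to the 6 livers alone, 2 genes passed, 0 of them among the 57 above. Each of the 57 calls was lost without at least 1 liver, and none changed sign. Without liver 1 a total of 5 genes passed, without liver 2 also 5, and without liver 3 there were 23. Without livers 4, 5 or 6 there were 120, 84 and 102. Of the genes that passed without livers 1 to 6, in turn 5, 5, 23, 22, 55 and 55 were among the 57. Of the 57, 4 lost their call through the omission of 1 liver only: Cxcl14, Sult2a8 and Ugt2b36 without liver 2 and Car14 without liver 4. With library totals in place of TMM the median slope of all genes moved from 0.00 to −0.11, and 21 genes rose and 329 fell, so that 6% of calls were rising against 36.8% with TMM. Lists are therefore set beside all genes. The genes on either side of the threshold were Orm1 (adjusted p = 0.0479) and Rb1cc1 (0.0507).

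Positive acute-phase proteins other than Saa1 and Saa2 were the list with the most rising genes. Of 42 listed genes 41 were tested. Of these 8 rose (Apcs, Lcn2, Serpina3n, Itih3, Hp, Orm1, Itih4 and Fgg), 0 fell and 33 did not pass, against 21 rising and 36 falling among all 11216 genes. Of the 41 slopes 34 were positive (82.9%, against 49.4% of all genes), with a median of 0.39 against 0.00, and 15 of 40 ranked members reached a rho of at least 0.886. Without liver 4 the median was 0.61 and 12 rose, and without liver 6 it was 0.34 and 13 rose. Without liver 1 or liver 2 none of the 41 passed, with medians of 0.35 and 0.34. The higher median without liver 4 was not particular to this list. In that setting glucocorticoid-responsive and stress hepatokine genes had a median of 0.59 and hepatocyte markers of 0.50, against 0.00 for all genes. Markers of T and NK cells moved the other way, to −0.57.

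Apcs, which encodes serum amyloid P component, a pentraxin of mouse plasma, had the steepest slope among them. It was at 691, 659.8 and 575 CPM in livers 2, 1 and 5 and at 2802, 3650.3 and 4468 CPM in livers 3, 6 and 4 (slope 1.06, SE 0.20, adjusted p = 0.0236). The first 3 livers lay close together and the last 3 lay well above them, so the values stepped rather than climbed evenly. Lcn2, which encodes the siderophore-binding protein lipocalin 2, was at 98.0, 180.2, 197, 577, 745 and 683 CPM (slope 1.01, SE 0.20, adjusted p = 0.0322). Control livers held 2.87 to 11.6 CPM of Lcn2, so every tumour-bearing WT liver lay above every control liver.

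Haptoglobin (Hp), the plasma protein that binds free haemoglobin, climbed at each step. Its values were 5738, 7456, 11024, 13934, 16592 and 20225 CPM (slope 0.60, SE 0.11, adjusted p = 0.0236), against 2437 to 5055 CPM in control livers. Itih4, an inter-alpha-trypsin inhibitor heavy chain, also rose at each step, from 1786 CPM in liver 2 to 5092 in liver 4 (slope 0.53, SE 0.11, adjusted p = 0.0345). Its relative Itih3 ran from 1596 CPM in liver 2 to 7194 in liver 6 and 6732 in liver 4 (slope 0.76, SE 0.14, adjusted p = 0.0236). Serpina3n, a serine protease inhibitor, was at 476, 732, 746, 1451, 3184 and 2146 CPM (slope 0.83, SE 0.19, adjusted p = 0.0454), with liver 6 highest. Orm1 and Serpina3n belong to families of near-identical genes, and their counts may hold reads of relatives.

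The fibrinogen chains, subunits of 1 clotting protein, had slopes of similar size, of which 1 passed. Fgg rose from 5056 CPM in liver 2 to 11187 in liver 4 (slope 0.44, SE 0.09, adjusted p = 0.0371). Fgb was highest in liver 6 (25846 CPM) and had a slope of 0.38 (SE 0.14, adjusted p = 0.22). The members that did not follow the order included the hepcidin genes, whose product limits iron export. Hamp, which responds to IL-6, was at 1681, 728, 516, 729.6, 1118 and 890.4 CPM, with no order (rho 0.03, slope −0.16, adjusted p = 0.66). Hamp2, its close copy, went from 85.4 CPM in liver 2 to 7.99 in liver 4 (rho −0.94), and its slope of −1.08 (SE 0.43) did not pass (adjusted p = 0.262). Metallothionein Mt1 had a slope of 1.08 that did not pass (adjusted p = 0.418). Liver 6 held 11897 CPM of Mt1 against 5825 in liver 4 and 970 to 3558 in the other 4.

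**Figure D2:**
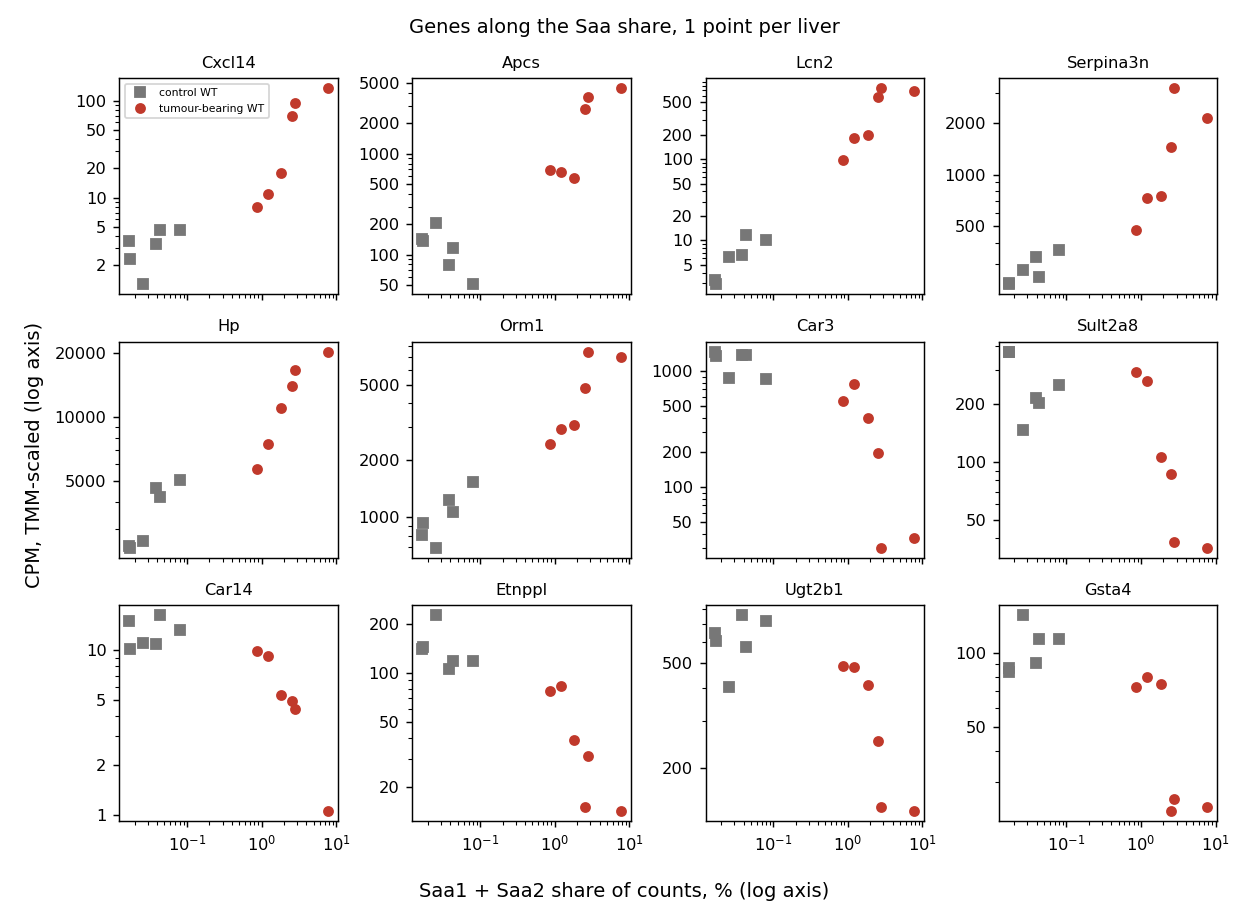
CPM of 12 genes (TMM-scaled, log axis) against the Saa1 and Saa2 share of counts (%, log axis), 1 point per liver, for the 6 tumour-bearing WT and the 6 control WT livers. The first 6 genes rose along the order and the last 6 fell. Apcs and Gsta4 show a step between livers 5 and 3, while Hp and Cxcl14 changed at every step. The largest change of Cxcl14 was also between livers 5 and 3 (17.9 to 70.2 CPM).

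In other lists of secreted proteins 1 or 2 members rose and 0 fell. Of 43 tested complement and coagulation genes (median slope 0.13) 1 rose, C4bp, which binds complement C4b, from 500.3 CPM in liver 2 to 1056 in liver 4 (slope 0.40, SE 0.08, adjusted p = 0.0371). Without liver 4 the median was 0.36 and 3 rose, and without liver 2 it was 0.076 and 0 rose. C3, the central complement component, changed at every step from 6225 to 13888 CPM without passing (slope 0.38, SE 0.10, adjusted p = 0.089). Of 20 iron-handling genes 2 rose, Hp and Lcn2, which are also acute-phase members. Of 27 tested negative acute-phase and other plasma proteins, a class named for falling in inflammation, 1 rose and 0 fell, with a median of 0.13. That median was 0.40 without liver 4, where 3 rose, −0.0077 without liver 2, where 0 rose, and −0.00043 with library totals. The rising member was Ambp, precursor of alpha-1-microglobulin and bikunin, at 3525, 4157, 6263, 6605, 9108 and 9647 CPM (slope 0.49, SE 0.10, adjusted p = 0.0371). Alb itself had a slope of 0.13 (SE 0.16, adjusted p = 0.768) and transthyretin (Ttr) of 0.09 (SE 0.12, adjusted p = 0.797). Fn1, the fibronectin gene, which is in none of the lists, rose from 919 CPM in liver 2 to 2029.6 in liver 4 (slope 0.40, SE 0.07, adjusted p = 0.0203).

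Genes of IL-6 signalling were taken as a list. In the IL-6 and STAT3 signalling list, edgeR called 0 of 29 tested genes in either direction after adjustment over all genes, with a median slope of 0.07; 0 and 1 of 26 ranked members lay past the rho limits in the 2 directions. Stat3 was at 163, 182, 233, 237, 264 and 196 CPM (slope 0.10, SE 0.10, adjusted p = 0.685), and its slope turned to −0.014 with library totals and to −0.0071 without liver 2, and was 0.40 without liver 4, where no member of the list passed. Socs3, the STAT3-induced inhibitor of gp130 signalling, was at 23.3, 28.3, 9.46, 70.8, 52.7 and 25.3 CPM (slope 0.22, SE 0.34, adjusted p = 0.828). The 2 ends of the order held nearly equal Socs3, while all 6 livers lay above the control maximum of 8.65 CPM. Lifr, the receptor chain for LIF, went from 143 CPM in liver 2 to 51.6 in liver 4 (slope −0.52, SE 0.13, adjusted p = 0.0722, which did not pass).

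Cxcl14, a chemokine of epithelial cells, had the largest positive slope of all called genes. It lies on chromosome 13, 56288643 to 56296811, and was at 7.90, 10.8, 17.9, 70.2, 95.2 and 134 CPM. Every liver lay above the one before it, and all lay above the control range of 1.27 to 4.66 CPM (slope 1.49, SE 0.22, adjusted p = 0.005). Without liver 2 its slope was 1.35 (adjusted p = 0.0779). Of 19 tested chemokine and cytokine genes it and Ccl6 were the 2 that rose, and the median slope was 0.00. Ccl6, a chemokine of myeloid cells, was at 62.8, 63.2, 48.0, 105, 114 and 229 CPM (slope 0.64, SE 0.13, adjusted p = 0.0345). Lcn2 was the 1 riser among 38 genes of IL-1 and NF-kB signalling.

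Further rising genes were in other lists or in none. Slc13a3, a sodium-coupled dicarboxylate carrier of pericentral hepatocytes, changed at each step from 18.7 to 102 CPM (slope 0.86, SE 0.15, adjusted p = 0.0165). Isyna1, the enzyme that makes inositol phosphate from a glucose phosphate, was highest in liver 4 (405 CPM) and liver 3 (242 CPM), with 70.7 to 108 CPM in the others (slope 0.77, SE 0.14, adjusted p = 0.0203). Lect2, a hepatocyte-secreted leukocyte chemotactic protein, went from 199 to 437 CPM (slope 0.41, SE 0.08, adjusted p = 0.0236). Pcx, the pyruvate carboxylase gene, went from 231 to 469 CPM (slope 0.37, SE 0.08, adjusted p = 0.0454). The remaining risers were Chpf, Ano10, Faap20 and Fam25c. Of 25 genes of cholesterol synthesis and uptake, 21 had positive slopes (median 0.19) and 0 passed by edgeR, 1 of them past the upper rho limit. The median was 0.38 without liver 4, where 1 rose, and 0.099 without liver 2.

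The bases before the tabled start sites of the rising genes were searched for TTCNNNGAA, the core bound by STAT factors, which reads the same on both strands. It was found in 7.02% of 32851 RefSeq promoter windows of 250 bases (GRCm38.p6) and in 8.13% of the 27025 genes they belong to. Of the 21 rising genes 18 had a window and 3 held the core (16.7%). Of the 36 falling genes 23 had a window and 2 held it (8.70%). The 3 rising genes with the core are printed on their own strand with the core in capitals, since they include the steepest riser. They come from chr13:56296723-56296752 (minus strand), chr14:30886415-30886444 (plus strand) and chr1:172895275-172895304 (minus strand). The Cxcl14 stretch lies inside the annotated extent of Cxcl14, since the table uses a start site within it. The windows of Saa1 and Saa2 did not hold these letters. Neither the presence nor the absence of the core shows whether a STAT factor binds, and binding was not tested. With 3 and 2 genes holding it, the shares of rising and falling genes are imprecise.
Cxcl14: aacctgtgtgTTCTGAGAAgtgtccacagg
Itih4: aaacctgcatTTCCGAGAActtgcaccagc
Apcs: atcttcTTCTAGGAAagcacagggtcatga

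Falling genes included enzymes and carriers of hepatocytes. Car3, the cytosolic carbonic anhydrase III abundant in mouse liver, had the most negative slope of the called genes that averaged 5 CPM or more. It was at 550.3, 779, 397, 198, 30.1 and 36.6 CPM (slope −1.51, SE 0.26, adjusted p = 0.0165). All 6 livers lay below the control range of 852 to 1477 CPM, and the 2 livers with the most Saa held the least. Without liver 1 its adjusted p was 0.0753 and without liver 4 it was 0.0558. Car14, a membrane-bound carbonic anhydrase, changed at each step from 9.87 to 1.05 CPM (slope −0.97, SE 0.15, adjusted p = 0.00859), with liver 4 lowest, and without liver 4 its slope was −0.74 (adjusted p = 0.0895).

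Enzymes that attach sulfate or glucuronic acid to steroids, bile acids and drugs were among the falling genes. Sult2a8, a sulfotransferase of bile acids, was at 293, 263, 106, 86.2, 38.2 and 35.6 CPM (slope −1.06, SE 0.17, adjusted p = 0.00926). The first 2 livers lay within the control range of 146 to 374 CPM and the last 4 lay below it. Ugt2b1, a glucuronosyltransferase, was at 485, 483, 413, 253, 142 and 136 CPM (slope −0.67, SE 0.13, adjusted p = 0.029), and its relative Ugt2b36 went from 747 to 260.4 CPM (slope −0.51, SE 0.08, adjusted p = 0.00859). The Ugt2b genes are close relatives, so reads may be split among them. Gsta4, a glutathione transferase of lipid peroxidation products, was at 72.5, 79.8 and 75.2 CPM in livers 2, 1 and 5 and at 22.8, 25.5 and 23.9 CPM in livers 3, 6 and 4 (slope −0.65, SE 0.15, adjusted p = 0.047).

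Of 68 tested genes of cytochrome P450 and drug metabolism 3 fell (Sult2a8, Ugt2b1 and Ugt2b36) and 0 rose; 17 slopes were positive and the median was −0.22. That median turned to 0.08 without liver 4, while 2 members still fell. Cyp3a11, a main drug-oxidizing enzyme, had a slope of −0.56 (SE 0.20, adjusted p = 0.215), and Cyp4a12a, a male-biased fatty acid hydroxylase, of −1.03 (SE 0.35, adjusted p = 0.196). Cyp4a12a was at 254, 523 and 740 CPM in livers 2, 1 and 5 and at 98.7, 42.8 and 70.6 CPM in livers 3, 6 and 4. Of 29 genes of the growth hormone axis and sex-biased expression 1 fell, Mup3, a major urinary protein gene with near-identical copies, from 6138 to 1919 CPM with a step down at each liver (slope −0.58, SE 0.12, adjusted p = 0.0392). The median of that list, −0.19, turned to 0.11 without liver 4.

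Further falling genes were in other lists or in none. Etnppl, a phosphoethanolamine lyase, was at 77.8, 83.1, 38.9, 15.3, 31.1 and 14.3 CPM (slope −0.88, SE 0.16, adjusted p = 0.0198), all below the control range of 106 to 225 CPM. Lipc, hepatic lipase, went from 85.5 to 23.7 CPM (slope −0.63, SE 0.11, adjusted p = 0.0153). Ugp2, which makes UDP-glucose, went from 148 to 62.9 CPM (slope −0.43, SE 0.09, adjusted p = 0.0333). Abca8a, a lipid transporter, and Rbl2, a pocket protein of the cell cycle, fell with liver 4 far below the other 5 (10.6 against 29.3 to 52.5 CPM, and 1.70 against 6.97 to 14.1 CPM), and without liver 4 their adjusted p were 0.464 and 0.22. Lists of bile acid, fatty acid oxidation, lipogenesis and glutathione genes had medians of −0.12, −0.13, −0.06 and −0.18. The glutathione list held 1 falling gene, Gsta4, and the other 3 held none (edgeR), with 2, 3 and 1 members past the lower rho limit. Without liver 4 these medians were 0.04, 0.01, 0.05 and −0.08, in the same order.

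**Figure D3:**
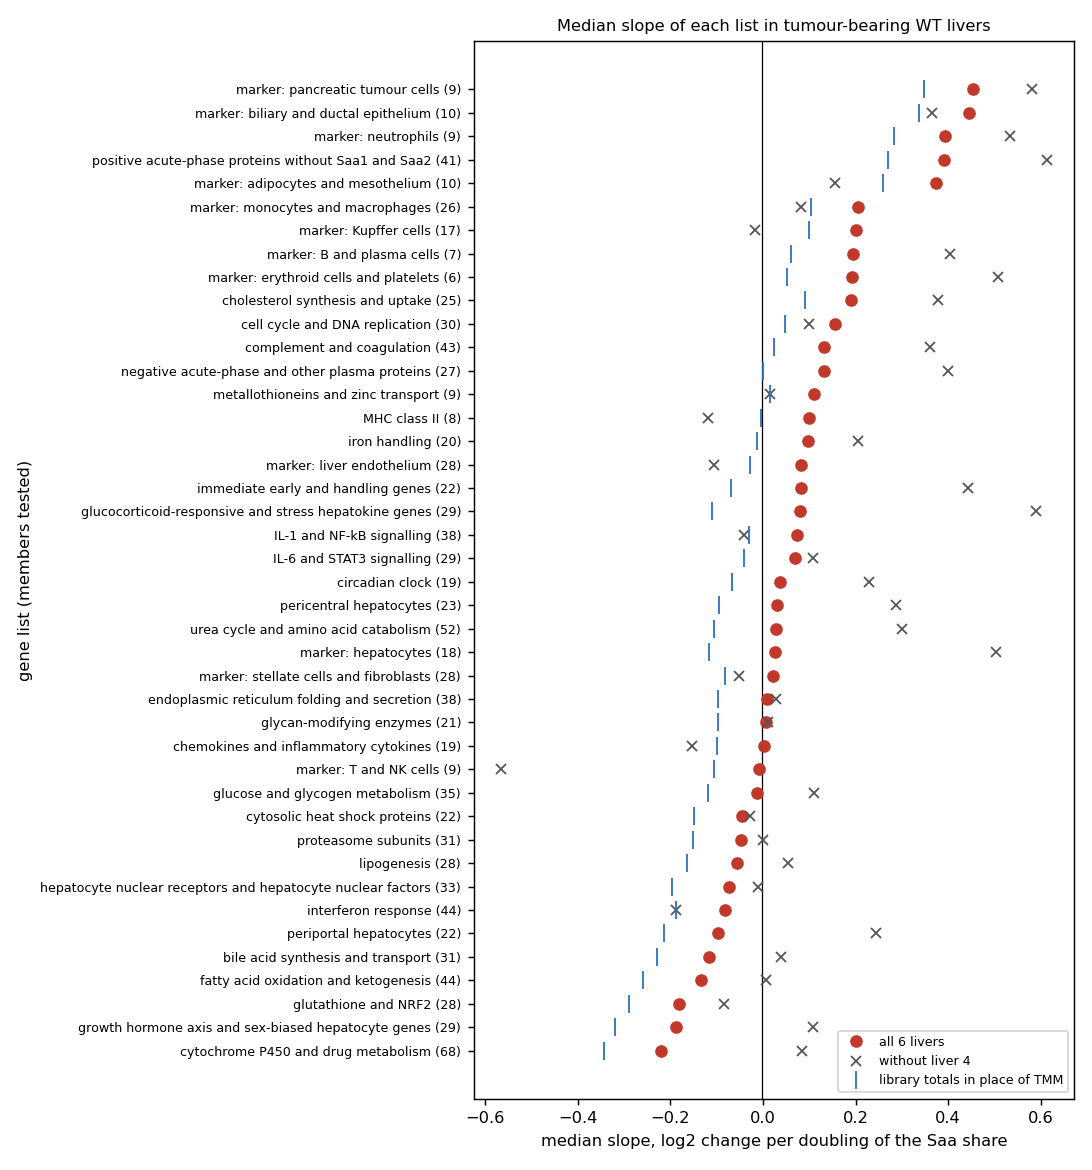
Median slope of each gene list with at least 5 tested members (log2 change per doubling of the Saa share; number of tested members in brackets) for all 6 livers, without liver 4 and with library totals in place of TMM; the vertical line is the median of all genes. Acute-phase genes lay at 0.39 and at 0.61 without liver 4, while the median of drug metabolism genes went from −0.22 to 0.08. Hepatocyte markers went from 0.03 to 0.50 and glucocorticoid-responsive and stress hepatokine genes from 0.08 to 0.59. Markers of T and NK cells went from −0.01 to −0.57.

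Markers of other cell types moved with parts of the order. In bulk liver, more cells of a type and more RNA per cell cannot be told apart. Of 23 neutrophil markers 9 were tested, all 9 with positive slopes (median 0.39) and 0 passing by edgeR. Their summed level, over 22 markers in the table, was 234, 156, 206, 486, 280.0 and 534 CPM, against 41.2 to 88.9 CPM in control livers. S100a8, an abundant neutrophil protein, went from 61.3 CPM in liver 2 to 192 in liver 4 (slope 0.67, SE 0.19, adjusted p = 0.129). Summed Kupffer cell markers were at 1084 to 2506 CPM and were highest in liver 4 (median slope 0.20, and −0.02 without liver 4). The part of these cells in the rise of Lcn2 and Ccl6, which myeloid cells also express, was not tested.

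Markers of pancreatic tumour cells had a median slope of 0.45 over the 9 of 19 abundant enough to test, 6 of them positive, and 1 rose, Lcn2. At 0 in all 6 livers were 3 (Tff1, Cldn18 and Pdx1). The summed level was 529.8, 684, 702, 1087, 1324 and 1178 CPM along the order, against 404 to 683 CPM in control livers, and was carried by Lcn2 and by Onecut2 (218 to 335 CPM, against 229 to 502 CPM in control livers), which hepatocytes express. Krt19 was at 2.05 to 7.40 CPM and Msln, the mesothelin gene, at 1.45 to 18.1 CPM (slope 0.97, SE 0.30, adjusted p = 0.159). Both were higher in livers 3, 6 and 4 than in livers 2, 1 and 5. Hepatocyte markers summed to 97776 to 223372 CPM, highest in liver 6, and their median slope of 0.03 became 0.50 without liver 4. Markers of stellate cells, endothelium, and T and NK cells had median slopes of 0.02, 0.08 and −0.01, which without liver 4 were −0.05, −0.11 and −0.57. Markers of biliary and ductal epithelium had a median of 0.44 (0.36 without liver 4), with 9 of 10 slopes positive and 0 passing, and summed to 102 CPM in liver 2 and 249 CPM in liver 4 against 119 to 164 CPM in control livers. Markers of adipocytes and mesothelium had a median of 0.37 (0.16 without liver 4), also with 9 of 10 positive and 0 passing. Of the 10 tested in each of these lists, 4 biliary and 3 adipocyte or mesothelial markers averaged 5 CPM or more. Both lists share genes with the tumour cell list, Krt19 among them, so their medians are not independent. The part of these cell types in the other results was not tested.

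The genes most alike to the Saa share in shape over the 6 livers, by Pearson correlation of log2 values, were Fam76a (r 0.99), Ppapdc1b (0.98) and Coa7 (0.97) in the same direction and Abcd3 (−0.99), Ccz1 (−0.99) and Rarres2 (−0.99) in the opposite one. Abcd3, a fatty acid carrier of the peroxisome, was at 384, 349, 323, 253, 249 and 174 CPM (rho −1, exact permutation p = 0.00278, adjusted p = 0.51). Fam76a spanned 6.58 to 13.2 CPM, against 6.95 to 13.1 CPM in control livers, so a close shape did not come with a wide range. Of these 6 genes Rarres2, the chemerin gene, passed the slope test (slope −0.48, SE 0.10, adjusted p = 0.0371).

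The place of these genes relative to control livers was a separate question, and both comparisons use the same tumour-bearing WT livers. Against control livers, 195 genes were higher (1.74%) and 55 lower (0.49%). Of the 21 rising genes and the 195 higher ones 16 were shared; Pcx, Lect2, Faap20, Ano10 and Chpf rose without passing against control. Of the 36 falling genes and the 55 lower ones 5 were shared (Etnppl, Abca8a, Gsta4, Srd5a1 and Gm4956). Dusp6, a phosphatase of ERK, fell along the order (slope −0.54, SE 0.12, adjusted p = 0.0454) with a log2 difference from control of −0.09 (SE 0.27, adjusted p = 0.913). Ugt2b1 had a log2 difference of −0.96 that did not pass (adjusted p = 0.058).

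The same slope was taken within groups that the order did not use. Among control WT livers, whose share spanned 4.74-fold, 67 genes had a positive slope (0.597%) and 80 a negative one (0.713%); of the 57 genes called in tumour-bearing WT livers 1 was also called in controls, Acsf2, in the opposite direction. Of the 21 rising genes 13 had a positive control slope (median 0.15), and of the 36 falling genes 20 had a negative one (median −0.08), beside 50.1% of all genes with a positive one. Without control liver 4 or 5 no control slope passed by edgeR (1716 and 987 genes at an unadjusted p under 0.05). Among Stat3-deleted livers 40 genes had a positive slope (0.357%) and 2 a negative one (0.0178%), of which Car14 (0.43, adjusted p = 0.017) and Rarres2 (0.59, adjusted p = 3.15e-06) were among the 57, each with the opposite sign. There liver 4 held most of the range, and without it no gene passed (728 at an unadjusted p under 0.05). Acute-phase genes had a median slope of 0.11 in control and 0.03 in Stat3-deleted livers.

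The slopes of 5 genes (0.0446%) differed between tumour-bearing WT and control livers, each with an adjusted p of 0.0474. Irs2, an insulin receptor substrate, had a slope of −0.35 (SE 0.17) in tumour-bearing WT and 1.23 (SE 0.21) in control livers. Acsf2, an acyl-CoA synthetase of mitochondria, had −0.67 (SE 0.15) and 0.72 (SE 0.17). The transcription factor Klf3 had −0.26 (SE 0.10) and 0.63 (SE 0.12), and Nrd1, the nardilysin protease, −0.11 (SE 0.07) and 0.52 (SE 0.09). Fn1 had 0.40 (SE 0.07) and −0.27 (SE 0.09), the reverse sign. None of the 5 differences passed without tumour-bearing WT liver 1 or without control liver 1, 2, 4, 5 or 6 (edgeR; 917 to 1649 genes at an unadjusted p under 0.05), and with DESeq2 301 genes passed.

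**Figure D4:**
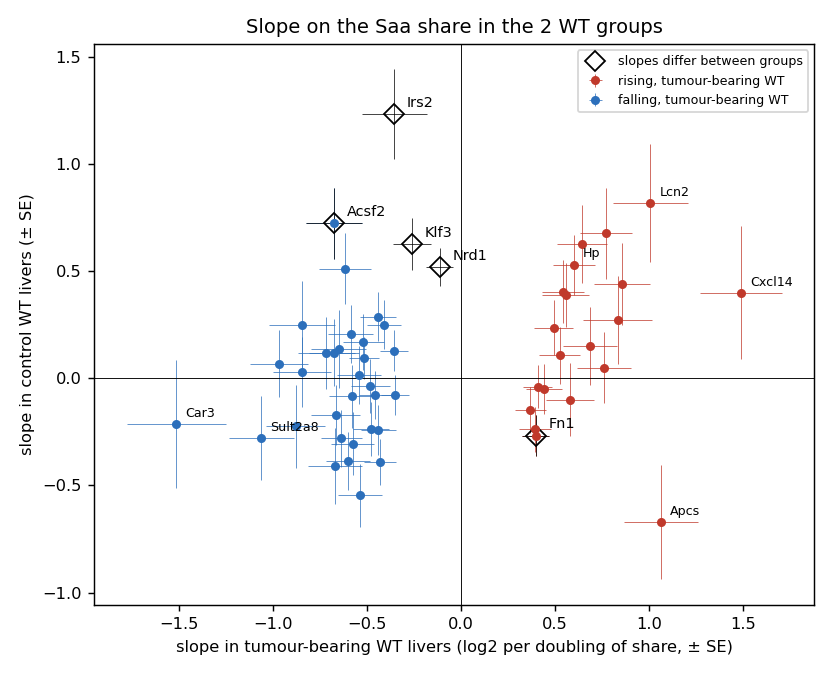
Slope of each called gene that averaged 5 CPM or more in tumour-bearing WT livers (horizontal, log2 change per doubling of the Saa share) against its slope in control WT livers (vertical), with standard errors; open diamonds are the 5 genes whose slopes differed. Rising genes such as Hp and Lcn2 lay above 0 in both groups, while Apcs lay below 0 in controls.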

How the data were processed

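Livers of 18 mice were sequenced (TRIzol and RNeasy extraction, QuantSeq 3′ FWD libraries, per the labels' protocols). The authors deposited raw read counts per gene symbol in 1 table; reads were aligned with STAR to mm10, per the submitters' processing notes, while the sources used here do not name the counter, annotation, strand setting or treatment of multiply aligned reads. Of 24421 symbols, 27 turned into dates by a spreadsheet were left out (0.103% to 0.166% of counts). Library totals were 5204378 to 9532978 counts, and intervals of shares (95%, Wilson) cover counting error only. Such 3′ reads do not depend on gene length, but cannot be told apart between copies with the same end.

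edgeR 4.0.16 (R 4.3.3; quasi-likelihood, TMM, filterByExpr) was fitted to the 18 livers with an intercept per group and a slope per group on the log2 CPM of Saa1 plus Saa2 (offset 0.5), leaving 12 residual degrees of freedom; 11216 genes were adjusted by Benjamini-Hochberg at 0.05, and prior counts were 2. The comparison with control livers used group terms only (15 residual degrees of freedom). Spearman and Pearson correlations over the 6 livers used all 720 orders as an exact two-sided permutation test (scipy 1.17.1), for genes that averaged 5 CPM or more. The fit was tested on simulated counts with planted slopes and the same spread for every gene. Such counts cannot show how far the calls in these data depend on single livers. The alternatives were DESeq2 1.42.0, limma 3.58.1 voom, other scalings, filters and covariates, a replicate block and leaving out each liver.

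Genes were named by rule: Saa1, Saa2, Saa3, Stat3 and Socs3; the 12 largest called slopes in each direction, without predicted, pseudo- or Mup genes; up to 6 members per list and direction by smallest p; and the 10 most and least alike by r. Mup3, Ddx3y, Fkbp5, Alb, Ttr, Lipc, Fn1, Faap20, Ano10, Chpf, Gm4956, Irs2, Klf3 and Nrd1, where outside that rule, were chosen after their values were seen. The livers, the 43 gene lists and the tests were chosen with earlier results of these data known.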

Additional observations from a re-analysis of the deposited data

Results flagged for a closer look

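In 27 sets of 6 values from the tumour-bearing WT livers, the highest or lowest liver was compared with the rest by its gap to the nearest other liver, divided by the whole range. Chance puts about 1 in 20 such sets past Dixon's 95% critical value, used as the limit. Liver 4 passed it as the low liver for log2 Rbl2 (gap 0.656 of the range) and log2 Abca8a (0.634). Of all 8397 genes that averaged 5 CPM or more, 558 (6.65%) had a liver past the limit. Most of the 27 sets are genes named for their slope along an order that ends at liver 4.

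The slope on the Saa share differed between tumour-bearing WT and control livers for 5 genes by edgeR's interaction contrast (adjusted p = 0.0474 for each). The difference, tumour-bearing WT minus control, was −1.59 for Irs2, −1.40 for Acsf2, −0.89 for Klf3, −0.63 for Nrd1 and 0.66 for Fn1.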

How the results depend on the processing

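Most same-numbered tumour-bearing WT and control livers carry consecutive numbers in their description labels, which do not say whether these livers were paired. The correlation of same-numbered livers of these groups ran from −0.096 to 0.309 and exceeded 0.1 in 1 of 6. Such values cannot decide whether the livers were paired. With a replicate block, 21 genes had a slope in tumour-bearing WT livers in place of 57 (14 shared), 0 in control (147; 1447 at an unadjusted p under 0.05), 1 in Stat3-deleted livers (42), and 23 slopes differed (5). The tumour-bearing WT count was 232 with DESeq2 (55 among the 57), 350 with library totals (55), 4 with the linear share (4) and 102 with its rank (49). With an acute-phase score it was 132 (24 among the 57) and in the 6 livers alone 2 (0 among the 57). There, with the lower and higher label numbers as a block, it was 0 (454 unadjusted). It stayed between 45 and 64 with relative log expression factors, TMM without Saa, other filters, voom, or Saa1 or Saa2 alone. Control slopes numbered 589 and Stat3-deleted slopes 139 with DESeq2, the latter 21 with library totals. Slope differences numbered 301 with DESeq2, 0 with relative log expression factors (1747 unadjusted), 32 with library totals, 1 with the stricter filter and 38 with voom. The group comparison gave 460 genes with DESeq2 in place of 250, and the rank count was 934 with library totals and 345 at a minimum of 20 CPM in place of 549. Leaving out each liver gave 5 to 120 tumour-bearing WT slopes, 0 to 170 control slopes, 0 to 41 Stat3-deleted slopes, 0 to 122 differences, 130 to 460 group calls and 128 to 275 rank calls. Of the 24 named called genes, 7 stayed past the threshold with the block and 3 with the linear share, and 0 changed sign. The slope of Stat3 turned to −0.014 with library totals and −0.0071 without liver 2 (range −0.0071 to 0.398 leaving out each liver), and that of Socs3 to −0.00039 with the linear share. Without the 2 farthest livers no rank count exists, since 4 livers cannot go below an exact p of 0.0833. The cause of these changes was not tested. With 6 livers the order rests on few points, and copies with the same end cannot be separated at any depth.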

Other observations

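Liver 6, next below liver 4 in Saa share, stood apart from the other 5 tumour-bearing WT livers in some genes. Por, the reductase that feeds electrons to cytochrome P450 enzymes, was at 748 CPM in liver 6 and at 134 to 165 CPM in the others. Asl, the argininosuccinate lyase of the urea cycle, was at 931 against 150 to 230 CPM. Elovl3, a fatty acid elongase that is higher in males, was lowest in liver 6 without setting it apart. It was at 372, 464 and 921 CPM in livers 2, 1 and 5 and at 149, 26.6 and 55.2 CPM in livers 3, 6 and 4. Control livers spanned 29.3 to 1268 CPM of Elovl3. These genes were chosen after their values were seen, and the difference of liver 6 from the other livers was not tested.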
